A study of Homo sapiens with 12 samples.

Results

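The 9 genes described here encode parts of the HLA class I antigen presentation route: the heavy chains HLA-B, HLA-C, HLA-E and HLA-F, the light chain B2M, the peptide transporter subunits TAP1 and TAP2, the loading chaperone TAPBP (tapasin) and the transcriptional regulator NLRC5. They were chosen by gene symbol from the 58191 rows of a table of gene expression values, 1 row for each gene. The study measured RNA by sequencing in 12 libraries of human leukaemia cell lines, 3 in each of 4 groups: control (labelled wild type) and EVI1 overexpression, in K562 and in cells labelled MOLM14. K562 is an erythroid leukaemia line derived from chronic myeloid leukaemia in blast crisis, and MOLM14 is a monocytic acute myeloid leukaemia line. EVI1 is a zinc finger transcription factor, a product of the MECOM locus. The labels do not give the vector, the promoter that drives EVI1, the EVI1 isoform, or whether the overexpressing cells were a clone or a pool. In the libraries labelled MOLM14, gene names match their values only in the first 5510 rows; 0 of the 9 genes lie there, so their MOLM14 values are not used here, and the comparison is K562 with EVI1 overexpression, 3 libraries, against K562 control, 3 libraries. It asks how RNA of the class I route differed when EVI1 was overexpressed.

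Class I molecules carry peptides from the inside of a cell to its surface, where CD8 T cells and natural killer cells read them. Peptides are cut by the proteasome, pumped into the endoplasmic reticulum by the TAP1 and TAP2 transporter, and fitted into a heavy chain paired with B2M with the help of tapasin, calreticulin and ERp57. The promoters of these genes are known to respond to interferon through ISRE elements, to NF-kB, and to NLRC5, which acts through the RFX, CREB and NFY proteins on a shared promoter module. K562 cells are known for very low class I protein at the surface and are a common target line in natural killer cell assays.

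Promoter sequences are shown because they hold motifs of these pathways. RefSeq windows of 300 bases, from 250 bases before to 50 after the annotated start, were found by symbol for 7 of the 9 genes on GRCh38.p14; HLA-E and NLRC5 had no entry. They belong to the reference genome and not to the alleles of K562. Capitals mark 4 motifs searched on both strands: the ISRE core of interferon response elements (GAAA, any 2 bases, then GAAA again), the NF-kB consensus, TGACG (a CREB half-site) and CCAAT (bound by NFY). The windows read 5′ to 3′ in the direction of the gene.

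B2M, chr15:44711267-44711566, plus strand: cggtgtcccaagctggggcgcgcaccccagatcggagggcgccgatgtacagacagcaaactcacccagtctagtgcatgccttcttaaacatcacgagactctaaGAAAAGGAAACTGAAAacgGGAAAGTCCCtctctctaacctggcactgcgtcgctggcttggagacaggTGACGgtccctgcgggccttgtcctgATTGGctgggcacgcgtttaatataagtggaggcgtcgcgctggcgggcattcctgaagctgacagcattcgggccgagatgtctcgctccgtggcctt
HLA-B, chr6:31357130-31357429, minus strand: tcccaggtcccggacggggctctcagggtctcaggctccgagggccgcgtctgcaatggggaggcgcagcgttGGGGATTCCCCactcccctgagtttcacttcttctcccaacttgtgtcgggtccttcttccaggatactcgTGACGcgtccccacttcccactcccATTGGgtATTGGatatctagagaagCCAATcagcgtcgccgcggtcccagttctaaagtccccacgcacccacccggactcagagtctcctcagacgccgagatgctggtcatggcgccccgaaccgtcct
HLA-C, chr6:31272043-31272342, minus strand: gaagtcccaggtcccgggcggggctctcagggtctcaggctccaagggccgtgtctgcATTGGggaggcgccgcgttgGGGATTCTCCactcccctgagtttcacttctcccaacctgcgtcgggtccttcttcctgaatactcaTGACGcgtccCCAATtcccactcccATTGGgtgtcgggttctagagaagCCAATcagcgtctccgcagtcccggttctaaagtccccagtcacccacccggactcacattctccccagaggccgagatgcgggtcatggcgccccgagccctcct
HLA-F, chr6:29723184-29723483, plus strand: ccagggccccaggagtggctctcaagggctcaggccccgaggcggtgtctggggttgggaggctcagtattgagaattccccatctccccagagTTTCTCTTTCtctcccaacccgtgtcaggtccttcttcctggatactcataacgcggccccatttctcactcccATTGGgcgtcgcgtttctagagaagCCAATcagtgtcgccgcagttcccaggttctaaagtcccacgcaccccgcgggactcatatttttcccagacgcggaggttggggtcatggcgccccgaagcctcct
TAP1, chr6:32853655-32853954, minus strand: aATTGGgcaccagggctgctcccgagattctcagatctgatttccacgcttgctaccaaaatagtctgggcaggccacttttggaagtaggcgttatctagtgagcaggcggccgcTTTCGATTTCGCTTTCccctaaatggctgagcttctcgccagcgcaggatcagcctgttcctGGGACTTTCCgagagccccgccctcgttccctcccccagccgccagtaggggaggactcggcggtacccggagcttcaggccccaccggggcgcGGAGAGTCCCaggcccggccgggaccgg
TAP2, chr6:32838690-32838989, minus strand: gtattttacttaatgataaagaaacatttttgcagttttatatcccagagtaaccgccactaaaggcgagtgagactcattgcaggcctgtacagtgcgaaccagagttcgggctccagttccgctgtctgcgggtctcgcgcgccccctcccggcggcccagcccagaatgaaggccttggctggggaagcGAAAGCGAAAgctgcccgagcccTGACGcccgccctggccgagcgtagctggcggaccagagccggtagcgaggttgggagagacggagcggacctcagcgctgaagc
TAPBP, chr6:33314029-33314328, minus strand: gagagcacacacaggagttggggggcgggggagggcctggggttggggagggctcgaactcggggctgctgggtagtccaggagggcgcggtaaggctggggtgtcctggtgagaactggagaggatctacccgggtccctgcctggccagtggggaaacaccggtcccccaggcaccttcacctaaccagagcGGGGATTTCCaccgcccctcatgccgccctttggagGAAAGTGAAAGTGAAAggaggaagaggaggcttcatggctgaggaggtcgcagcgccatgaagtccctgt

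The ISRE core occurred in the windows of 5 of the 7 genes (B2M, HLA-F, TAP1, TAP2 and TAPBP), against 3.57% of all 35116 windows. The NF-kB consensus also occurred in 5 (B2M, HLA-B, HLA-C, TAP1 and TAPBP), against 5.91% of all windows. TGACG occurred in 4 (B2M, HLA-B, HLA-C and TAP2) against 24.6%, and CCAAT in 5 (B2M, HLA-B, HLA-C, HLA-F and TAP1) against 34.6%. HLA-B and HLA-C shared their layout, with TGACG starting 106 and 105 bases before the start and a forward CCAAT starting 56 bases before it in both. B2M, TAP1 and TAPBP each held overlapping copies of the ISRE core. In B2M, TAP1 and TAPBP matches to the ISRE core and to the NF-kB consensus stood in the same window. HLA-B and HLA-C had no match to the ISRE core as written here. The search allowed no mismatch to a pattern, so a window without a match may still hold a related element. A match is a description of letters and not evidence of binding, and TAP1 had another RefSeq window with no match to these motifs.

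In K562, RNA of 5 of the 9 genes was higher with EVI1 overexpression: HLA-B, HLA-C, HLA-E, TAP1 and TAPBP. B2M and TAP2 did not pass the test, and HLA-F and NLRC5 were too low to be tested. A gene was tested when it reached 1 FPKM (fragments per kilobase of transcript, scaled to library size) in 3 of the 6 libraries, and called when its adjusted p was under 0.05 in limma's moderated test of log2(FPKM + 1), Benjamini-Hochberg adjusted over all 13800 genes tested. By this rule 28.2% of all tested genes were higher and 23.7% lower, 51.9% in either direction, so a call by itself was common in this comparison. Of the 7 tested members 5 were higher and 0 lower, and their median log2 fold change was 0.31, against 0.005 over all tested genes. HLA-B and HLA-C passed the expression filter only through the EVI1 libraries and so could hardly have been called otherwise; their calls add no weight to the count or to that median. Of the other 5 tested members 3 were higher, with a median of 0.24. The labels name no separate cultures, so p-values measure only the spread between these libraries, and in bulk RNA fewer cells expressing a gene and less RNA per cell cannot be told apart.

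**Figure D1:**
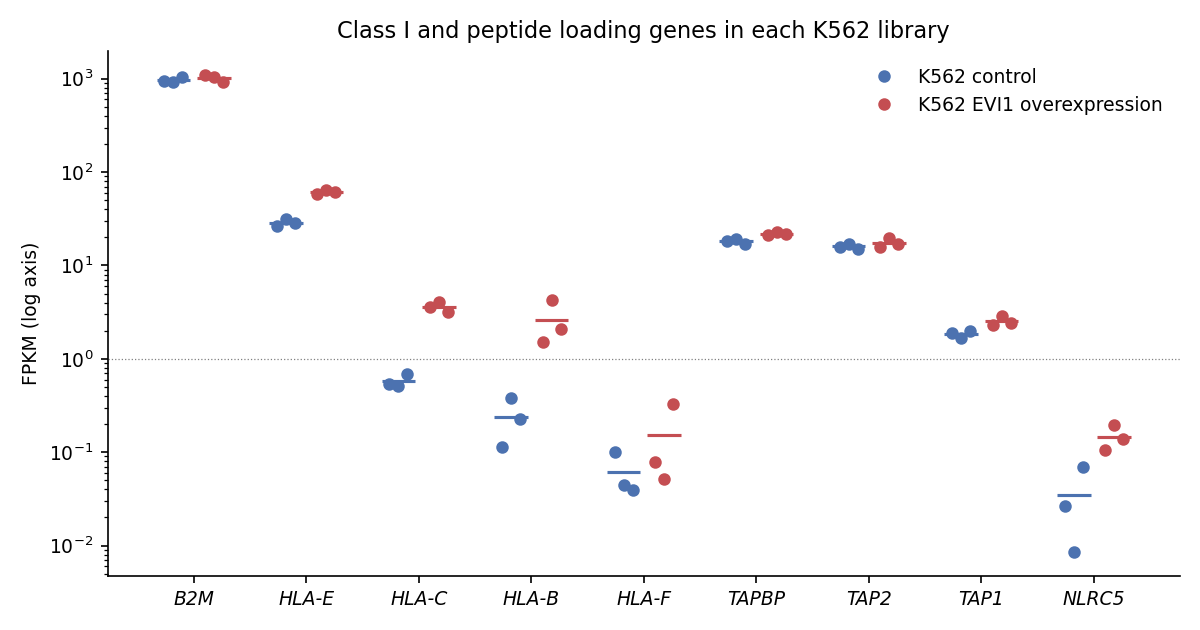
FPKM on a log axis for each of the 9 genes in 3 K562 control libraries (blue points) and 3 K562 EVI1 libraries (red points), with horizontal lines at group means and a dotted line at 1 FPKM. The genes range from B2M near 1000 FPKM to NLRC5 and HLA-F below 1 FPKM, and the groups are apart in 6 of the 9 genes. Of all tested genes, 32.4% had every EVI1 library above every control and 28.2% had every one below. HLA-B and HLA-C passed the filter of the test only through the EVI1 libraries, and NLRC5 was not tested.

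The class I heavy chains differed widely in level. HLA-E, a non-classical heavy chain that presents signal peptides of other class I molecules to the NKG2A and NKG2C receptors, stood at 26.8, 31.3 and 28.3 FPKM in control replicates 1 to 3 and at 58.5, 65.1 and 61.0 FPKM in EVI1 replicates 1 to 3. Every EVI1 library lay above every control library, and the lowest of them was still well clear of the highest control. The mean rose from 28.8 ± 2.31 to 61.5 ± 3.33 FPKM (SD, n = 3 each). Its log2 fold change was 1.07 (SE 0.08, 95% confidence interval 0.88 to 1.26), with an adjusted p of 2.09e-05 in limma. HLA-E lies at chr6:30489467-30494205 on the plus strand (GRCh38, GENCODE 29), and it kept a log2 fold change between 1.02 and 1.13 in all alternatives tried.

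HLA-C, a classical heavy chain and a ligand of killer immunoglobulin-like receptors, was read at 0.539, 0.51 and 0.687 FPKM in control and at 3.63, 4.11 and 3.17 FPKM in the EVI1 libraries. The controls were all below 1 FPKM and the EVI1 libraries all above 3 FPKM. The group means were 0.579 ± 0.0949 and 3.63 ± 0.472 FPKM (SD, n = 3 each), 6.28 times as high with EVI1. On the log2(FPKM + 1) scale, which understates changes of low genes, the difference was 1.55 (SE 0.12, limma adjusted p 1.84e-05), and it was 2.46 with a pseudocount of 0.1.

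HLA-B, a classical heavy chain, was read at 0.113, 0.382 and 0.226 FPKM in control and at 1.51, 4.27 and 2.10 FPKM in the EVI1 libraries. The groups did not overlap, but the EVI1 libraries were far apart, with replicate 2 the highest. The means were 0.24 ± 0.135 and 2.63 ± 1.46 FPKM (SD, n = 3 each), a ratio of 10.9. The log2 fold change was 1.48 (SE 0.25, limma adjusted p 0.00138); it was 1.17 without EVI1 replicate 2 and 2.95 with a pseudocount of 0.1. The annotated span of HLA-B (chr6:31269491-31357188, minus strand) contains HLA-C (chr6:31268749-31272130, minus strand) in large part, and 2.48% of the 50-base words of HLA-B transcripts also occur in HLA-C transcripts. How the authors' counting split fragments between such close paralogs is not given in the sources used here, so both values are uncertain in that respect.

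HLA-F, a non-classical heavy chain that can reach the surface without peptide, was barely detected. Its values were 0.1, 0.0449 and 0.0389 FPKM in control and 0.0783, 0.0517 and 0.327 FPKM with EVI1. The groups overlapped, and EVI1 replicate 3 was the highest. On its longest coding transcript, 3 fragments would equal 0.022 to 0.046 FPKM across these libraries, so several values rest on a few fragments and no difference was detectable at this depth.

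B2M, the light chain shared by all class I heavy chains, was the most abundant of the 9 genes in every library. It stood at 947, 917 and 1037 FPKM in control and at 1107, 1031 and 932 FPKM with EVI1. The ranges overlapped, with one EVI1 library below 2 of the controls. The log2 fold change was 0.08 (SE 0.09, 95% confidence interval -0.13 to 0.29, limma adjusted p 0.487), an interval that leaves out a difference of the size seen for HLA-E. Quantile normalization gave the 1 alternative in which B2M was called, at 0.25 with an adjusted p of 0.0396.

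FPKM is per length, so levels of these genes can be added. The 4 heavy chains summed to 27.5, 32.3 and 29.3 FPKM in control and to 63.7, 73.5 and 66.6 FPKM with EVI1. Against B2M the sum was 2.91%, 3.52% and 2.82% in control and 5.75%, 7.13% and 7.14% with EVI1. HLA-E made up 97.0% ± 0.306 of this sum in control and 90.6% ± 1.85 with EVI1 (SD, n = 3 each), while HLA-B and HLA-C together made up 2.75% ± 0.375 and 9.13% ± 1.97. In both groups heavy chain RNA was thus mostly HLA-E, and B2M RNA was in large excess over these 4 heavy chains; no test was made on these sums.

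**Figure D2:**
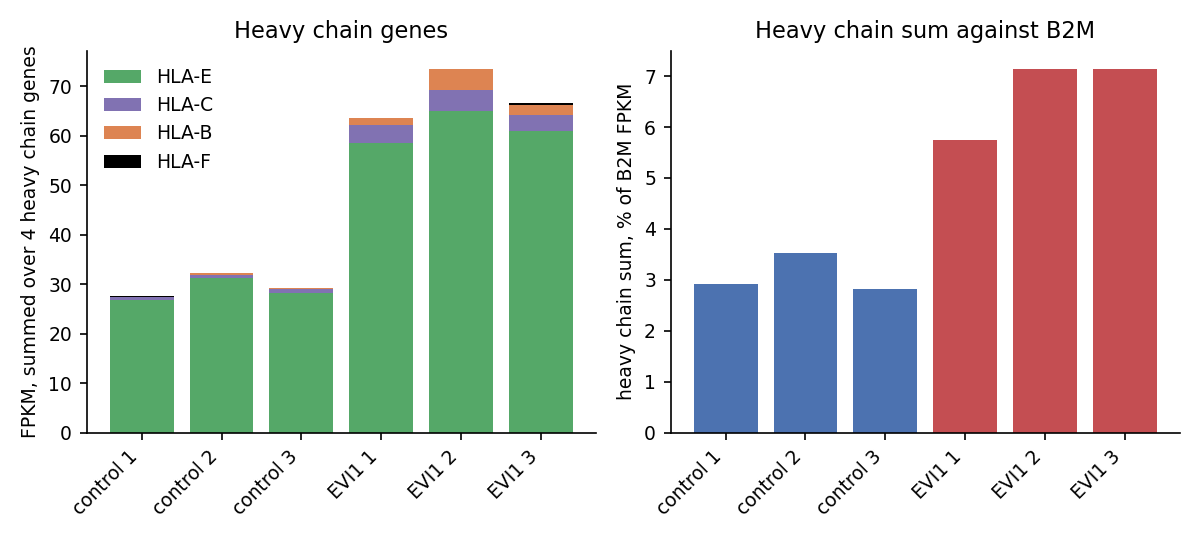
Left, FPKM of the 4 heavy chain genes stacked for each K562 library; right, the same sum as a percentage of B2M FPKM in that library. The sums lie between 27.5 and 32.3 FPKM in the controls and between 63.7 and 73.5 FPKM in the EVI1 libraries, nearly all of it HLA-E.

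Of the loading machinery, the transporter subunits were unequal in level. TAP1 was read at 1.90, 1.66 and 1.98 FPKM in control and 2.28, 2.87 and 2.41 FPKM with EVI1, and TAP2 at 15.9, 17.1 and 15.2 FPKM and 15.9, 19.6 and 17.1 FPKM. TAP1 groups did not overlap, while TAP2 groups did. TAP1 rose by a log2 fold change of 0.31 (SE 0.11, 95% confidence interval 0.05 to 0.56, limma adjusted p 0.0449), a call lost without any 1 of the 6 libraries (0.24 without EVI1 replicate 2 to 0.36 without EVI1 replicate 1). The TAP1 call was also lost under quantile normalization (0.10, adjusted p 0.434), TMM factors (0.0603), a pseudocount of 0.1 (0.0504), no filter (0.108) and the replicate block (0.0792). TAP2 gave 0.12 (SE 0.10, interval -0.10 to 0.33, limma adjusted p 0.338). TAP2 RNA was 8.78 ± 1.37 times TAP1 in control and 6.96 ± 0.128 times with EVI1 (SD, n = 3 each). In GENCODE 29 TAP1 overlaps PSMB9 on the opposite strand, TAP2 (chr6:32821833-32838780, minus strand) overlaps the protein-coding AL669918.1 on its own strand, and 31.3% of the 50-base words of TAP2 occur in transcripts of other genes. Whether strand was used in counting is not given, so fragments of such shared stretches cannot be told apart.

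TAPBP, which bridges the transporter and the empty heavy chain, was read at 18.4, 19.4 and 16.9 FPKM in control and at 21.0, 22.7 and 21.7 FPKM with EVI1. The 2 groups were close but did not overlap. Its log2 fold change was 0.24 (SE 0.08, 95% confidence interval 0.06 to 0.43, limma adjusted p 0.0321). The call was lost without any 1 library other than control replicate 2 (adjusted p up to 0.0838), and under TMM factors (0.0568) and quantile normalization (0.0529). TAPBP lies at chr6:33299694-33314387 on the minus strand.

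NLRC5, the main known transactivator of class I genes, stood at 0.0262, 0.00857 and 0.0691 FPKM in control and 0.106, 0.194 and 0.14 FPKM with EVI1. All 3 EVI1 values were above all 3 controls, yet each of the 6 was far below the filter of 1 FPKM. Without that filter its log2 fold change was 0.15 (SE 0.037, limma adjusted p 0.0409). On its longest coding transcript 3 fragments would equal 0.0053 to 0.011 FPKM, so control replicate 2 was at that floor. NLRC5 lies at chr16:56989485-57083531 on the plus strand.

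By level, the order in control was B2M, HLA-E, TAPBP, TAP2, TAP1, HLA-C, HLA-B, HLA-F and NLRC5. TAPBP and TAP2 overlapped in range, as did HLA-F and NLRC5. With EVI1 the order was B2M, HLA-E, TAPBP, TAP2, HLA-C, HLA-B, TAP1, HLA-F and NLRC5. There HLA-B overlapped in range with both HLA-C and TAP1, as HLA-F did with NLRC5, whereas in control HLA-C and HLA-B lay below TAP1. Across all 9 genes, EVI1 values were all above control values in 6, below in 0 and overlapping in 3. Of the 7 tested members 5 had every EVI1 library above every control and 0 had every one below. The shares over all tested genes were 32.4% and 28.2%, and the share called higher was 28.2% too. HLA-B and HLA-C passed the filter only through the EVI1 libraries, so their separation was fixed by the filter and adds no weight. Of the other tested members HLA-E, TAP1 and TAPBP had every EVI1 library above every control, and B2M and TAP2 overlapped.

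Peptide supply, trimming and loading were followed with 18 further genes, of which 16 were tested. In this list 5 were higher (3 with a filter of 5 FPKM), 3 lower and 8 not called. Over all tested genes 28.2% were higher and 23.7% lower. The list's median log2 fold change was -0.10 against 0.005 for all tested genes, so the list as a whole did not move one way. The immunoproteasome subunits PSMB9 and PSMB8, encoded beside TAP1 and TAP2, replace constitutive proteasome subunits and favour peptides that suit class I. PSMB9 was read at 1.23, 0.992 and 0.948 FPKM in control and at 6.65, 6.44 and 4.71 FPKM with EVI1. Its log2 fold change was 1.74 (SE 0.14, limma adjusted p 2.24e-05). PSMB8 was read at 0.329, 0.378 and 0.443 FPKM in control and at 2.20, 2.38 and 2.29 FPKM with EVI1, a log2 fold change of 1.25 (SE 0.10, limma adjusted p 2.68e-05). Neither gene's groups overlapped, and PSMB8, like HLA-B and HLA-C, passed the filter only through the EVI1 libraries.

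PSMB9 overlaps both TAP1 and PSMB8 on the opposite strand (PSMB9 at chr6:32844136-32859585, plus strand). The ratio of PSMB9 to TAP1 FPKM was 0.574 ± 0.0863 in control and 2.37 ± 0.492 with EVI1 (SD, n = 3 each). The third immunoproteasome subunit, PSMB10, had 36.3 ± 1.22 FPKM in control and 34.8 ± 1.46 FPKM with EVI1 and was not called (log2 fold change -0.06, limma adjusted p 0.488); it is named after its values were seen. PSMB9 was thus called higher and PSMB10 was not called, while a call of PSMB8 could go 1 way only. Differences between the 3 subunits were not tested.

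The proteasome activator subunit PSME1 rose from 47.7 ± 3.99 to 78.2 ± 5.73 FPKM (log2 fold change 0.70, limma adjusted p 0.000267). HSPA5, the general endoplasmic reticulum chaperone BiP, which is also a target of the unfolded protein response, rose from 133.6 ± 6.41 to 279.9 ± 47.9 FPKM (log2 fold change 1.05, limma adjusted p 0.000156). Of the chaperones of the loading complex itself, calreticulin (CALR) stood at 555 ± 33.9 and 498.0 ± 17.7 FPKM and was not called (log2 fold change -0.16, limma adjusted p 0.117), though it was called lower under TMM factors (adjusted p 0.0363) and without control replicate 3 (0.0365); CALR too is named after its values were seen. The lower calls were PSME3, LNPEP and UGGT1, which serve a nuclear proteasome activator, endosomal peptide trimming and glycoprotein folding control; they are named after their values were seen, and the call of UGGT1 was lost without control replicate 1 (adjusted p 0.0574).

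**Figure D3:**
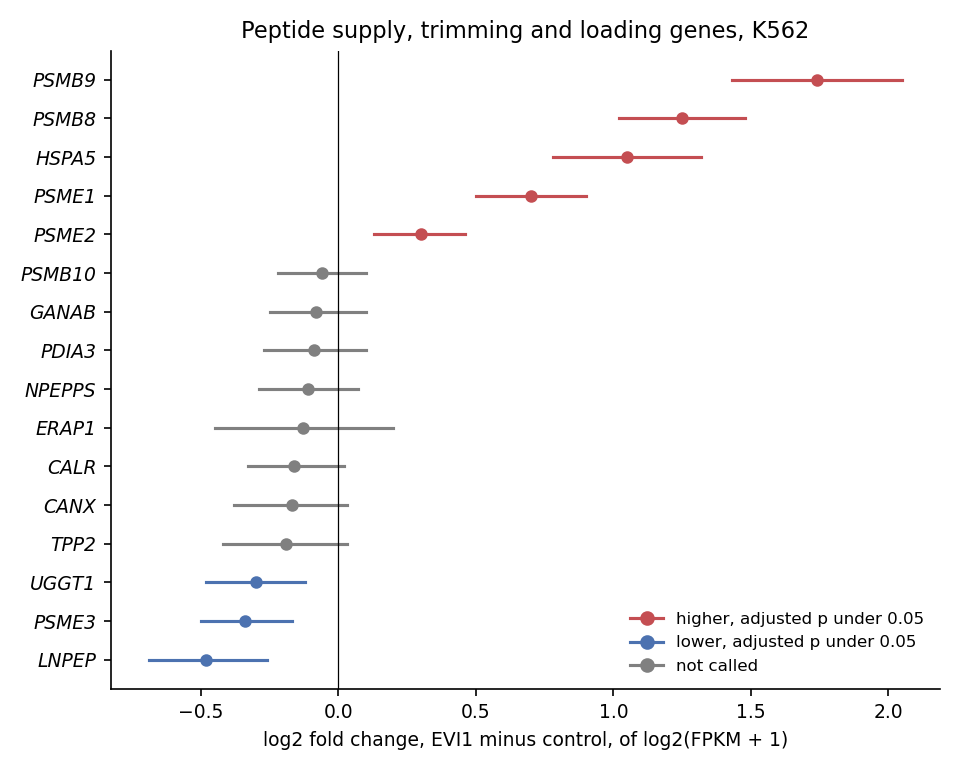
Log2 fold change of log2(FPKM + 1), EVI1 minus control, for the 16 tested genes of peptide supply, trimming and loading in K562, as points with 95% confidence intervals from limma; red is called higher, blue called lower and grey not called. PSMB9 (1.74), PSMB8 (1.25) and HSPA5 (1.05) lie farthest to the right, and most of the other genes lie near 0 or to its left.

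Transcription factors and signalling proteins known to act on class I promoters were a list of 26 genes with 24 tested. Of these 6 were higher, 6 lower and 12 not called, with a median log2 fold change of 0.08. Over all tested genes 28.2% were higher and 23.7% lower, with a median of 0.005, so the list was called at about the rate of all genes. IRF9, a DNA-binding factor of the type I interferon response, rose from 7.84 ± 1.06 to 17.5 ± 0.721 FPKM (log2 fold change 1.07, limma adjusted p 7.72e-05). Its libraries were 8.68, 6.64 and 8.19 FPKM in control and 17.96, 17.9 and 16.7 FPKM with EVI1. NFKB2, the p100 precursor of non-canonical NF-kB signalling, rose from 16.3 ± 2.23 to 31.6 ± 2.61 FPKM (0.92, limma adjusted p 0.000245).

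Other members of the list fell. IFNGR2, the signalling chain of the interferon gamma receptor, fell from 18.6 ± 0.795 to 9.81 ± 0.448 FPKM (log2 fold change -0.86, limma adjusted p 5.32e-05). RFXANK, a subunit of the RFX complex through which NLRC5 reaches DNA, fell from 175.8 ± 14.4 to 116 ± 8.21 FPKM (-0.59, limma adjusted p 0.000617). Its partner RFX5 was not called (19.1 ± 0.868 and 19.3 ± 1.06 FPKM; 0.02, limma adjusted p 0.854). IRF1, a main interferon gamma effector at these promoters, was not called (0.19, limma adjusted p 0.241). RFX5 and IRF1 are named after their values were seen.

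**Figure D4:**
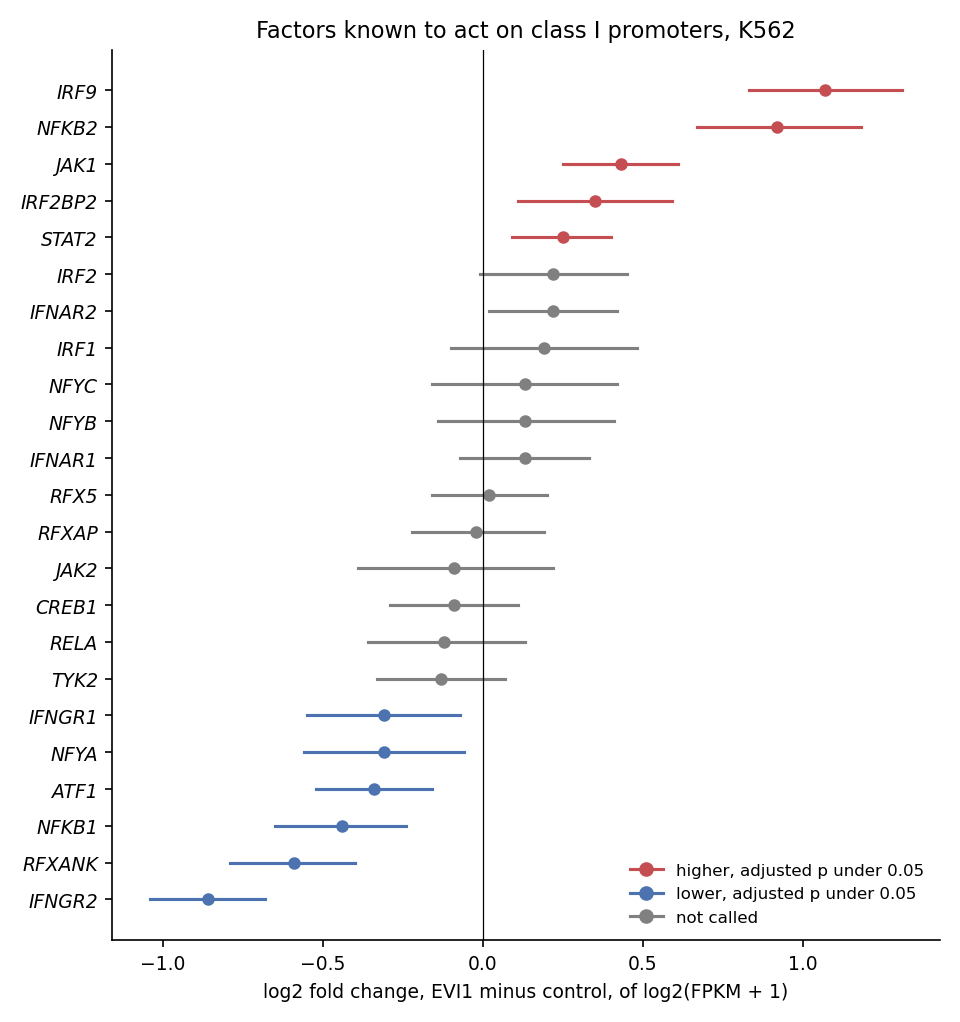
Log2 fold change of log2(FPKM + 1), EVI1 minus control, for 23 of the 24 tested regulators of class I transcription in K562, as points with 95% confidence intervals from limma; red is called higher, blue called lower and grey not called. IRF9 (1.07) and NFKB2 (0.92) stand at the upper end and IFNGR2 (-0.86) at the lower, with 12 genes not called between them.

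Polycomb repressive complex 2 is known to silence class I genes in some tumours. A list of 8 polycomb and related genes, which also holds the PRC1 subunit PCGF1 and the acetyltransferase complex subunit EPC1, was tested in full. Of these 1 was higher, 4 were lower (2 without control replicate 1) and 3 were not called. Their median log2 fold change was -0.24, against 0.005 over all tested genes. Over all tested genes 28.2% were higher and 23.7% lower, 51.9% in either direction, so a call by itself was common. Any part of these genes in the class I values was not tested. EED, a core subunit of repressive complex 2, fell from 47.3 ± 1.70 to 34.9 ± 1.87 FPKM (-0.43, limma adjusted p 0.00139). SUZ12, another core subunit, was lower at 24.8, 22.5 and 24.5 FPKM in control and 19.9, 12.4 and 18.1 FPKM with EVI1 (-0.51, limma adjusted p 0.0226), a call lost without control replicate 1 or 3 (adjusted p 0.0618 and 0.0549), without a filter (0.099) and with an equal sum without mitochondrial genes (0.0623). Without EVI1 replicate 2, the lowest library, the SUZ12 value was -0.32. EPC1 was lower (-0.33, limma adjusted p 0.0145), with its call lost without control replicate 1 or EVI1 replicate 3 (0.0502 and 0.0538). EZH1, the methyltransferase of resting cells, rose from 21.9 ± 1.40 to 30.9 ± 1.90 FPKM (0.48, limma adjusted p 0.00151). Its paralog EZH2, named after its values were seen, stood at 83.5 ± 2.48 and 74.3 ± 1.55 FPKM and was not called (-0.17, limma adjusted p 0.0544), though it was called lower under TMM factors (adjusted p 0.0167) and without a filter (0.0296).

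The HLA genes lie together in the major histocompatibility complex, so the members were set beside their neighbours. Between HLA-F and TAPBP on chromosome 6 (chr6:29722775-33314387, 3.59 Mb), 106 genes with coordinates were tested; 38 (35.8%) were higher and 19 (17.9%) lower, with a median log2 fold change of 0.13. Without the members there the values were 33.7% higher and 18.8% lower of 101 genes, and on the rest of chromosome 6 they were 29.4% and 27.0% of 545. Calls in the region went both ways. TRIM15 and TRIM10, tripartite motif genes near HLA-E, rose from 0.455 ± 0.0576 to 13.6 ± 0.665 FPKM (log2 fold change 3.33, limma adjusted p 1.32e-07) and from 0.315 ± 0.0467 to 6.46 ± 0.373 FPKM (2.50, limma adjusted p 6.26e-07). Both passed the filter only through the EVI1 libraries, so a call could go 1 way only. AIF1, a macrophage-associated actin-binding protein, fell from 24.8 ± 5.28 to 3.46 ± 0.457 FPKM (-2.51, limma adjusted p 5.36e-06).

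**Figure D5:**
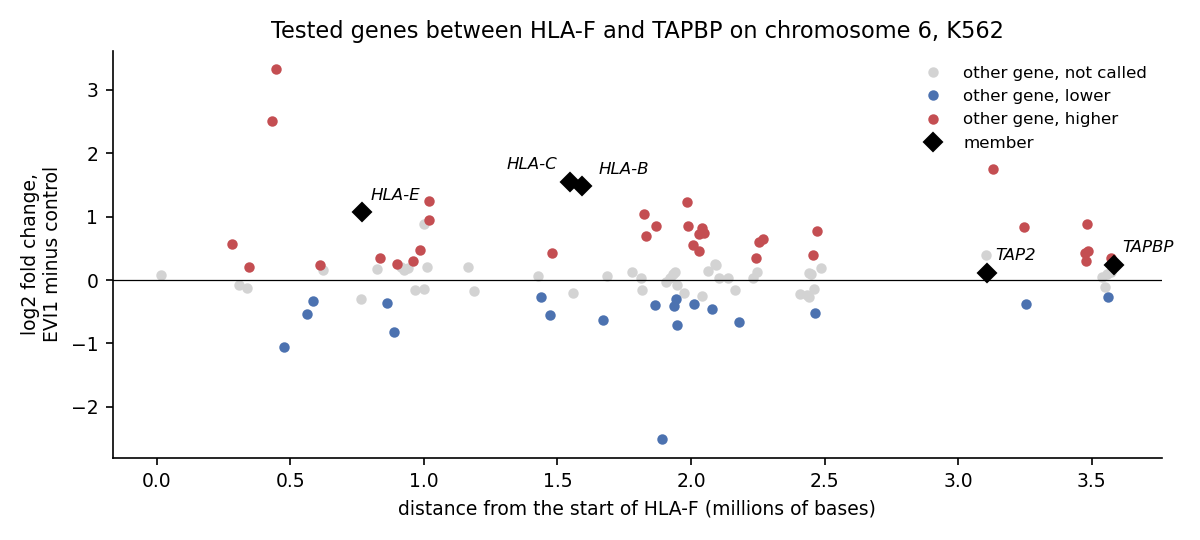
Log2 fold change, EVI1 minus control, of the 106 tested genes between HLA-F and TAPBP in K562, by distance from the start of HLA-F in Mb; black diamonds are members with coordinates in the annotation, red and blue points other genes called higher or lower, and grey points genes not called. HLA-E, HLA-C and HLA-B lie above most neighbours, and TAP2 and TAPBP lie near 0. HLA-C and HLA-B passed the filter only through the EVI1 libraries, so their place above 0 was fixed by it. TAP1 is left out because its identifier version has no coordinates in the annotation used.

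The mean centred log2(FPKM + 1) profile of the 7 tested members was matched over the 6 K562 libraries, and the 5 nearest genes were NIT1, URB1-AS1, TMEM55A, NFKBIL1 and CYSTM1. Their mean absolute distances from it were 0.0181, 0.0197, 0.0201, 0.0224 and 0.0242 on the log2 scale. NIT1 had means of 39.3 and 62.8 FPKM, and NFKBIL1, which lies in the same region of chromosome 6, 15.5 and 25.8 FPKM. HLA-B, HLA-C and HLA-E had log2 fold changes of 1.48, 1.55 and 1.07, and B2M, TAP1, TAP2 and TAPBP 0.08 to 0.31. The 5 nearest genes had 0.65 to 0.73, so they match the average and no single member. HLA-B and HLA-C, which are in that average, passed the filter only through the EVI1 libraries.

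The library set behind these values was checked in brief. MECOM, the targeted locus, stood at 14.6, 11.2 and 10.9 FPKM in control and at 26.0, 23.9 and 22.1 FPKM with EVI1 (log2 fold change 0.93, limma adjusted p 0.000343). Sequencing depth, which the steps between low FPKM values reveal, was about 40 to 68 (in units of 1e6 fragments) in control and 63 to 83 with EVI1. Marker calls stand beside 28.2% higher and 23.7% lower over all tested genes. Of 10 erythroid markers, all tested, 2 were higher and 5 lower (HBZ, TFRC, KLF1, EPOR and ALAS2). Their sum was 9359 to 10110 FPKM in control and 12160 to 15240 FPKM with EVI1, with HBE1 at 3341 ± 163.6 and 6720 ± 687.4 FPKM. Of 14 T and natural killer cell markers 12 were under 1 FPKM in every library, with CD8A at 0; the sum was 38.4 to 44.2 FPKM in control and 68.1 to 79.0 FPKM with EVI1, nearly all CD3D and PRF1, both higher. Of 12 monocytic markers 7 were under 1 FPKM and FLT3 was at 0 (sums 82.5 to 85.6 and 97.1 to 115.0 FPKM); of the 4 tested, CD33 and PTPRC were higher and LYZ (21.8 ± 1.41 and 12.5 ± 1.68 FPKM) and SPI1 (28.8 ± 2.65 and 18.6 ± 2.12 FPKM) lower. Among 7 B cell markers MS4A1 was at 0 (sums 5.53 to 7.29 and 6.23 to 6.48 FPKM). The 9 fibroblast and endothelial markers summed to 10.3 to 14.9 and 33.0 to 38.5 FPKM. Of the 3 tested, COL1A1 (1.74 ± 0.786 and 20.9 ± 3.04 FPKM) and COL1A2 were higher and PECAM1 (6.76 ± 0.588 and 1.51 ± 0.24 FPKM) was lower. The part of these marker shifts in the values of the class I genes was not tested.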

How the data were processed

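RNA of 12 libraries was sequenced from TruSeq libraries of total RNA, per the labels' protocols. Those protocols name mouse small intestine, whereas the organism and cell line fields are human. The deposited table holds FPKM values that the authors computed; the submitters' processing notes list STAR, Cufflinks, Cuffnorm, hg38 and GRCh38; versions, strand use and a poly(A) step are not given in the sources used here. Cuffnorm scales libraries against each other, so FPKM depends on the other libraries of the run. Of the symbols, 27 turned into dates by a spreadsheet were restored from their identifiers.

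The 9 genes, all lists and the promoter motifs were chosen with earlier results of these data known. FPKM values of the 6 K562 libraries were analysed as log2(FPKM + 1) with limma 3.58.1 in R 4.3.3, with a mean-variance trend, two-sided, keeping genes of at least 1 FPKM in at least 3 libraries. Benjamini-Hochberg adjustment ran over all 13800 genes kept, and the threshold was 0.05. The fits planned for MOLM14 and for the difference between lines were not run, since none of the 9 genes lies in usable rows. Tables were handled with Python 3.11.15, pandas 2.3.3 and NumPy 2.4.6. Alternatives were a pseudocount of 0.1, no filter or one of 5 FPKM, TMM factors (an unweighted trimmed mean on FPKM), an equal sum without mitochondrial genes, quantile normalization, no trend, a replicate block, and leaving out each library. The fit was tested on simulated data. Depth was estimated from low FPKM values, of which 85.3% to 87.8% were whole multiples of 1 fragment within 0.05 on the log2 scale.

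The text names the 9 genes, up to 4 called genes of each list with the largest changes, up to 4 called genes of the region on chromosome 6 and the 5 genes nearest to the members' profile; of the region's 4, PSMB9 is described with its list. Coordinates are from GENCODE 29, where 7 of the 9 identifiers have their exact version; those of B2M and TAP1 do not. Promoter windows are from RefSeq. The values of 1 gene in the list of regulators are not reported here, though the list's counts include it.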

Additional observations from a re-analysis of the deposited data

How the results depend on the processing

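Of the 9 genes 5 were called, all higher. The number was 4 with a pseudocount of 0.1, under quantile normalization and with the replicate block, and 5 without a filter. It was 2 with a filter of 5 FPKM (which leaves HLA-B, HLA-C and TAP1 untested) and 3 with TMM factors. In every alternative 0 were lower. The genes behind these numbers were not always the same. Without a filter TAP1 lost its call (limma adjusted p 0.108) and NLRC5 gained one (0.0409). Under quantile normalization TAP1 (limma adjusted p 0.434) and TAPBP (0.0529) lost their calls and B2M gained one (0.0396). Leaving out 1 library gave 1 to 4; 1 came from leaving out an EVI1 library, when HLA-B and HLA-C no longer reach the filter. With the genes of the full fit kept, an alternative added after the data were seen, the range was 3 to 4. HLA-E (1.02 to 1.13 over 20 alternatives) kept direction and call in all of them. HLA-B (1.14 to 2.95 over 16) and HLA-C (1.27 to 2.46 over 16) did so wherever tested. Both pass the filter only through the EVI1 libraries, so in filtered fits their direction was fixed and adds no weight. Without a filter they were called higher too (limma adjusted p 0.0202 and 0.00114). TAP1 lost its call in 17 of 19 and TAPBP in 12 of 20, both with the same direction; the cause was not tested. Replicate numbers did not pair the libraries (correlations of same-numbered deviations -0.215, -0.052 and 0.126), and the block gave 7044 genes called against 7163. All genes called were 3898 higher and 3265 lower; quantile normalization gave 3347 and 4105, TMM factors 3576 and 3829, and no filter 4787 and 3030, while the median of all genes moved by at most 0.069. Of 48 other named genes that were recomputed, 46 kept their direction wherever they were tested. Of the 48, 9 were tested in fewer than the 20 alternatives. Some named genes were not recomputed, among them HBZ, TFRC, KLF1, EPOR and ALAS2. RFX5 turned to -0.029 with TMM factors and -0.035 under quantile normalization, and ranged from -0.02 to 0.054 with 1 library left out (below 0 without control replicate 1, at -0.001, or EVI1 replicate 2, at -0.02), and HLA-DOB to -0.115 (quantile normalization), none of them called. The NF-kB consensus was found in 3 of 7 promoters, against 5, when windows began 150 bases before the start. Depth limits HLA-F and NLRC5, which rest on few fragments.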

Other observations

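Class II and class I-like genes in K562 were described beside the class I route. Of 14 class II genes and partners, 9 were under 1 FPKM in all 6 libraries, and HLA-DQA1, HLA-DQB1 and HLA-DOA were at 0 in all. The 3 tested were CTSS, IFI30 and HLA-DOB: 1 higher, 1 lower and 1 not called; without the filter 3 of the list were higher. HLA-DPB1, HLA-DMA and CD74, too low to be tested and named after their values were seen, had every EVI1 library above every control (means 0.236 and 1.37, 0.406 and 0.812, and 0.302 and 0.746 FPKM). Of all tested genes 32.4% had this. The other untested genes of the list above 0, also named after their values were seen, overlapped between groups. HLA-DRA, HLA-DRB1 and CIITA had lower means with EVI1 (0.0285 and 0, 0.00478 and 0, and 0.21 and 0.186 FPKM). HLA-DPA1 and HLA-DMB had higher ones (0.0416 and 0.351, and 0.00582 and 0.014 FPKM). CTSS, the protease cathepsin S that trims the invariant chain, fell from 7.78 ± 0.809 to 1.86 ± 0.321 FPKM (SD, n = 3 each; log2 fold change -1.62, limma adjusted p 1.87e-05). IFI30, a lysosomal thiol reductase induced by interferon gamma, rose from 90.5 ± 6.05 to 122 ± 6.74 FPKM (0.43, limma adjusted p 0.00203). Of the 35 rows with an HLA symbol that are not among the 4 heavy chains described, 31 were under 1 FPKM in all 6 libraries and 19 were at 0.

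Class I-like molecules numbered 18, with 8 tested, 4 higher, 1 lower and 3 not called. Over all tested genes 28.2% were higher and 23.7% lower. The list's median log2 fold change was 0.28, against 0.005 over all tested genes. The higher calls numbered 2, 1 and 2 without EVI1 replicate 1, 2 or 3, when fewer genes reach the filter, and the lower ones 0 with a filter of 5 FPKM. ULBP2 and ULBP1, ligands of the NKG2D receptor of natural killer cells, rose from 0.409 ± 0.0422 to 27.5 ± 4.09 FPKM (4.33, limma adjusted p 1.29e-07) and from 0.264 ± 0.025 to 7.58 ± 0.70 FPKM (2.76, limma adjusted p 5.33e-07). Both passed the filter only through the EVI1 libraries and so could hardly have been called otherwise. Their calls add no weight to the list's count or to its median. PROCR, the endothelial protein C receptor with a class I-like fold, rose from 8.29 ± 0.556 to 21.2 ± 1.22 FPKM (1.26, limma adjusted p 1.16e-05). FCGRT, the heavy chain of the neonatal Fc receptor and a partner of B2M, fell from 3.14 ± 0.185 to 1.19 ± 0.127 FPKM (-0.92, limma adjusted p 0.000147). CD1A, CD1B, CD1C and CD1E were at 0 in all 6 libraries.

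Of 10 names listed for the turnover of class I at the surface, 8 were in the table and tested, with 2 higher, 0 lower and 6 not called; 1 was lower under quantile normalization and without control replicate 3, and 1 was higher under quantile normalization and without control replicate 1 or EVI1 replicate 3. Over all tested genes 28.2% were higher and 23.7% lower. SUSD6, a membrane protein known to lower surface class I, rose from 8.32 ± 0.489 to 12.6 ± 0.843 FPKM (0.55, limma adjusted p 0.00113). MARCHF9, a membrane ubiquitin ligase, was higher at 10.0 ± 0.318 and 12.5 ± 0.748 FPKM (0.30, limma adjusted p 0.0156), a call lost without control replicate 1 or EVI1 replicate 3 (adjusted p 0.0624 and 0.0685) and under quantile normalization (0.059).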
